A study of Macaca mulatta with 8 samples.

Results

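Mural cells and fibroblasts are the cells that wrap and surround the vessels of the brain, and 361 of the 58220 nuclei that passed a depth filter were taken as such here, which was 0.620% (exact 95% interval 0.558% to 0.687%). A nucleus was a member when it held at least 500 unique molecular identifiers (UMIs, counted RNA molecules) and 300 genes, when at least 3 of the 9 genes PDGFRB, NOTCH3, RGS5, ACTA2, DCN, COL1A2, COL3A1, COL6A3 and LAMA2 were detected, when these 9 genes summed to at least 10 per 10000 UMIs, and when fewer than 3 of the 7 endothelial genes FLT1, CLDN5, ERG, EMCN, CDH5, TEK and MECOM were detected. Frozen brain of male rhesus macaques was the source of the nuclei, and RNA was counted from its 3′ end in droplets. The tissue is given as hippocampus in the sample characteristics and as amygdala in the growth protocol. Sevoflurane, an inhaled anaesthetic, was given at 2.5% to 3% for 4 h per session to 1 animal, from about postnatal day 7 and again at 14 and 28 days. The control tissue came from 2 animals. Tissue was mixed within each group and then divided into 4 samples per group, so the 4 samples of a group are not separate animals. All samples stand in 1 count matrix whose barcodes carry library numbers 1 to 8, and no source used here pairs those numbers with the sevoflurane or control samples. No comparison of sevoflurane with control was therefore made, the matrix was treated as 1 sample, and no p-value is given.

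Mural cells comprise pericytes, which sit on capillaries inside the basement membrane, and smooth muscle cells, which encircle arteries and arterioles. Pericytes are recruited by platelet-derived growth factor through the receptor PDGFRB, depend on the Notch receptor NOTCH3 and hold ATP-sensitive potassium channels, while smooth muscle cells carry the contractile proteins smooth muscle actin (ACTA2) and myosin (MYH11). Brain fibroblasts lie in the meninges and around larger vessels and secrete fibrillar collagens, the proteoglycan decorin (DCN) and retinoic acid.

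The rule genes gave the members their values by construction. LAMA2, a laminin chain, stood at 3743 UMIs per 1000000 UMIs of the class (CPM) in members, against 28.5 CPM in all other nuclei, and was detected in 94.7% of members. It was also detected in 9.11% of nuclei of neuron-like clusters, whose median depth was 7530.5 UMIs against 1915 UMIs in members. COL1A2, a fibrillar collagen chain, stood at 612 against 1.05 CPM and PDGFRB at 366 against 11.3 CPM. ACTA2 was the rule gene detected in the fewest members, 11.9% of them. Exactly 3 rule genes were detected in 153 members, 4 in 128 and 5 or more in 80. Just inside the threshold, 8 members held 10 to 12 rule-gene UMIs per 10000, and just outside it 12 nuclei held 8 to 10. A further 160 nuclei met the other conditions and were kept out by 3 or more endothelial genes.

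The label was set beside markers of other cell types and beside clusters of all nuclei made without the listed and rule genes. The clusters were then named by markers that included the rule genes, so the name of a cluster was not independent of the rule. Of the members, 316 (87.5%) fell in the only cluster that mural or fibroblast markers led, 18 in unnamed clusters, 6 each in astrocyte-like and ependymal-like clusters and 5 each in neuron-like and endothelial-like clusters. The mural or fibroblast cluster held 513 nuclei, of which 61.6% were members. Its remaining nuclei did not meet the rule and were counted among all other nuclei. The 7 pan-neuronal markers summed to 4385 CPM in members (library range 2531 to 6245), against 11928 CPM in all other nuclei, and at least 3 of them were detected in 210 members. The 7 astrocyte markers summed to 2038 CPM (1291 to 2934) in members and 1554 CPM in other nuclei. The 6 ependymal markers summed to 465 CPM (59.1 to 1263) in members and 321 CPM in other nuclei, with none at 0. The 7 endothelial rule genes summed to 131 CPM in members, against 6492 CPM in the 380 endothelial nuclei defined by the mirrored rule. CD74, CD96, CD2, MKI67, SOX11 and DLX6 had no UMI in members. NDUFA4L2, a pericyte marker, and DES, a smooth muscle marker, also had none, and the limit that a count of 0 allows over the 888801 UMIs of the members is 3.38 CPM.

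Libraries 1 to 4 and 5 to 8 stood apart before any member was compared. Total depth ran from 35806547 to 47007082 UMIs per library, and the median per barcode was 3189 to 3426 UMIs in libraries 1 to 4 and 5730 to 5831 UMIs in libraries 5 to 8. Members made up 0.596%, 0.548%, 0.331% and 0.354% of nuclei in libraries 1 to 4 and 0.996%, 0.898%, 0.783% and 0.879% in libraries 5 to 8. The 56376 nuclei with at least 1000 UMIs were also thinned to 1000 UMIs, with 1844 shallower nuclei left out. Members were 0.376% of the thinned nuclei, and their share stayed lower in libraries 1 to 4 (0.160% to 0.445%) than in libraries 5 to 8 (0.461% to 0.595%). A barcode sequence found in more than 1 library was carried by 860 of the 59749 barcodes, and by 4 members. Simulated doublets marked 59 members, among them 25 of the 34 members of library 4, and members were 0.553% of nuclei without the marked nuclei. The log2 ratio of a gene named below is given for each library set alone where the sets differed by over 1.5 times. A class with no UMI in the libraries used was set to 3 counts, and its ratio is then a bound on a larger difference.

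**Figure D1:**
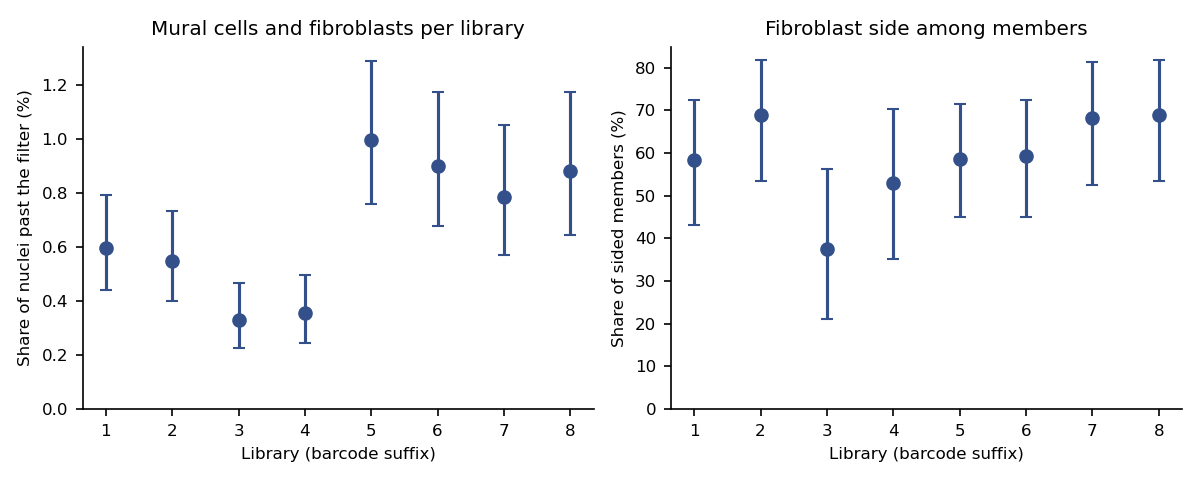
Left, the share of nuclei past the filter that were members, in percent, for each of the 8 libraries. Right, the share of members placed on the fibroblast side, in percent. Points are libraries and bars are exact 95% intervals that cover counting error only; member shares were 0.331% to 0.596% in libraries 1 to 4 and 0.783% to 0.996% in libraries 5 to 8.

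Each member was placed on a mural or a fibroblast side by whether a larger share of the 4 mural rule genes (PDGFRB, NOTCH3, RGS5, ACTA2) or of the 5 fibroblast rule genes (DCN, COL1A2, COL3A1, COL6A3, LAMA2) was detected. This gave 144 mural-side and 216 fibroblast-side members and 1 on neither side. The fibroblast side was 60% of sided members (exact 95% interval 54.7% to 65.1%) and 37.5% to 68.9% in single libraries, lowest in library 3. For 87 members the shares differed by 0.2 or less.

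Clustering the members alone gave 6 sub-clusters, which separated pericyte, smooth muscle and fibroblast expression. Sub-clusters 3 (72 nuclei) and 4 (61 nuclei) held pericyte genes. Of the rule genes, PDGFRB stood at 764 and 1448 CPM there and RGS5 at 705 and 1131 CPM. The potassium channel subunits ABCC9 and KCNJ8, outside the rule, stood at 903 and 839 CPM and at 103 and 85.2 CPM. KCNJ8, the pore subunit that pairs with ABCC9, had no UMI in the other 4 sub-clusters. Of the other pericyte markers, HIGD1B (58.7 and 73.0 CPM) and CSPG4 (44.1 and 24.3 CPM) were also highest in sub-clusters 3 and 4, on 8 UMIs or fewer in each. ATP13A5 was not, at 7.34 and 0 CPM there against 873 CPM in sub-cluster 1. ANPEP stood at 0 and 36.5 CPM there and 32.9 CPM in sub-cluster 1. Sub-clusters 1 (101 nuclei) and 2 (72 nuclei) held fibroblast genes, with CEMIP, which breaks down hyaluronan, at 4592 and 6515 CPM. COL1A1, a fibrillar collagen chain, stood at 521 and 842 CPM there, and higher, at 1460 CPM, in sub-cluster 6, described below. Of the other fibroblast markers, LUM, FBLN1, ABCA9, ABCA8 and BNC2 were highest in sub-clusters 1 and 2. SVEP1 was not, at 70.4 and 46.1 CPM there against 140 CPM in sub-cluster 3. COL6A3 had no UMI in either pericyte sub-cluster, while LAMA2 was high in all 4 of these sub-clusters, at 5654 and 4562 CPM in the pericyte pair and 2136 and 7910 CPM in the fibroblast pair. The members of each pair differed by library: 100 of 101 nuclei of sub-cluster 1 and all 61 of sub-cluster 4 came from libraries 5 to 8, and 64 of 72 nuclei of sub-cluster 2 and 69 of 72 of sub-cluster 3 from libraries 1 to 4. Of sub-clusters 2 and 3, 23 and 19 nuclei were marked as doublets, against 0 of sub-clusters 1 and 4.

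Sub-cluster 6 was small, 13 nuclei from 5 libraries, and held the contractile genes of smooth muscle. ACTA2 stood at 3065 CPM there, and at no more than 132 CPM in any other sub-cluster. LMOD1, which nucleates actin filaments in smooth muscle, stood at 1168 CPM, MYH11 at 467 CPM and MYOCD, a smooth muscle transcription co-activator, at 117 CPM. ACTA2 was detected in 13 of these 13 nuclei, LMOD1 in 11, MYH11 in 7 and MYOCD in 3. The same nuclei carried COL1A2 at 1956 CPM, COL3A1 at 1314 CPM and COL14A1 at 1343 CPM, and 9 of the 13 were placed on the fibroblast side. The mural side below is therefore mostly pericyte expression: 112 of its 144 nuclei lay in sub-clusters 3 and 4, and 3 in sub-cluster 6. Sub-cluster 5 (42 nuclei, median 4736.5 UMIs) was led by cilia genes and the astrocyte glutamate transporter SLC1A2 (2315 CPM), 16 of its nuclei were marked as doublets and 10 lay in the mural or fibroblast cluster, so it was left unnamed.

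**Figure D2:**
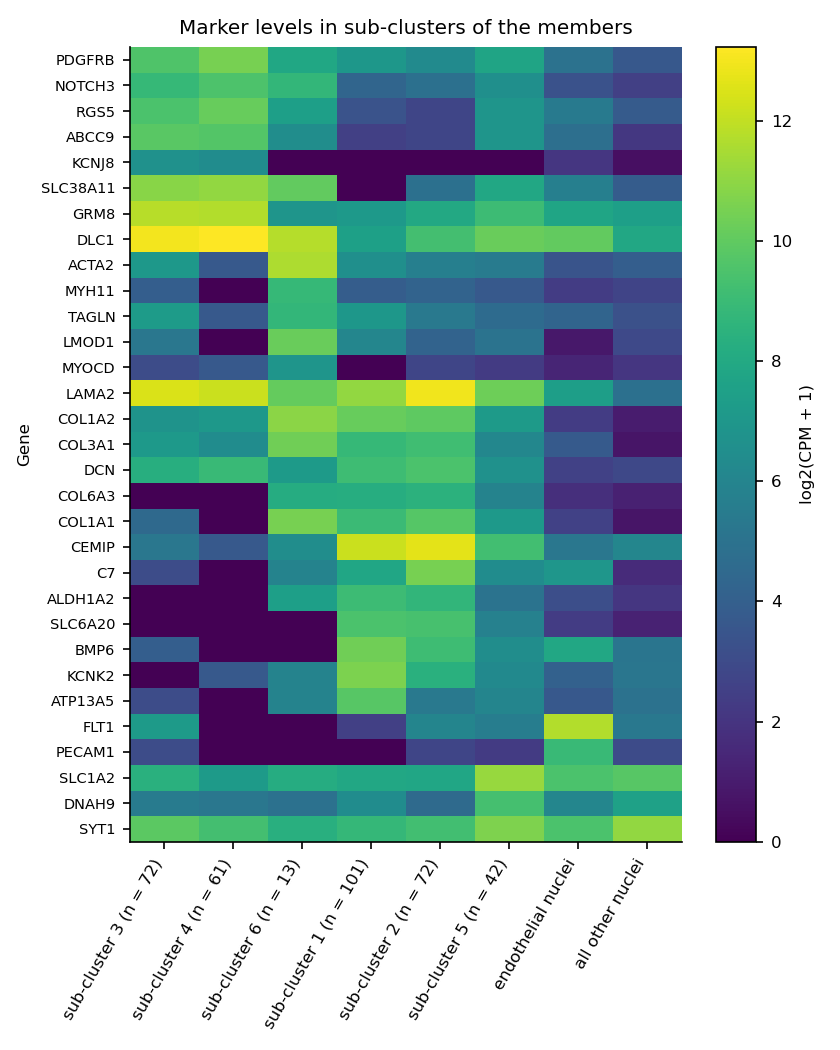
Levels of marker and rule genes, as log2(CPM + 1) on the colour scale, in the 6 sub-clusters of the members, in endothelial nuclei and in all other nuclei. Pericyte genes such as ABCC9 (903 and 839 CPM) are high in sub-clusters 3 and 4, contractile genes such as ACTA2 (3065 CPM) in sub-cluster 6 and fibroblast genes such as CEMIP (4592 and 6515 CPM) in sub-clusters 1 and 2.

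Against all other nuclei the members carried collagens, basement membrane chains, fibroblast and pericyte genes and transcription factors of the mesenchyme. Calling a gene required a ratio of 2-fold or more, 50 CPM or more in the higher class, and 1 direction over all 8 libraries. Of 5216 measured genes, 696 were called higher in members (13.3%) and 641 lower (12.3%), and the median log2 ratio over all of them was 0.23. The member rule was set on the same counts, so these ratios describe the members and support nothing further. With TMM scaling, which shifts every log2 ratio by −0.28, 505 were called higher and 884 lower, so that the share of calls that were higher was 36.4% in place of 52.1%.

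Of 19 measured collagen genes, 16 were called higher in members and 1 lower, with a median log2 ratio of 2.90. COL1A1 stood at 387 CPM in members (library values 215 to 580, median 397) and at 0.677 CPM in all other nuclei (0.225 to 1.18, median 0.638). This was 572-fold higher (exact 95% interval 482 to 680), and the libraries of the 2 classes did not overlap. COL18A1, a basement membrane collagen, stood at 350 CPM in members and 11.2 CPM in other nuclei, with a log2 ratio of 4.27 in libraries 1 to 4 alone and 5.598 in libraries 5 to 8 alone. COL24A1 was the collagen called lower, 31.5 against 63.4 CPM, a 2.01-fold difference at the threshold that lost its call without library 1 (log2 ratio −0.98), 2 (−0.98), 5 (−0.97), 7 (−0.94) or 8 (−0.94).

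Basement membrane genes other than collagens were higher in 9 of 13 cases, with a median log2 ratio of 2.26. LAMC3 stood at 259 CPM in members and 5.08 CPM in other nuclei, and LAMA4, a laminin chain of vessels, at 684 and 33.5 CPM. Of 20 measured genes of matrix structure and remodelling, 8 were higher and 1 lower. FN1, fibronectin, stood at 558 CPM in members (283 to 840, median 543) and 15.98 CPM in other nuclei (10.8 to 22.1, median 15.8), and its log2 ratio was 4.50 in libraries 1 to 4 alone and 5.78 in libraries 5 to 8 alone. MMP16, a membrane metalloproteinase, was the gene called lower, 257 against 636 CPM.

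Of 20 measured fibroblast identity genes 14 were called higher in members and none lower. CEMIP, of that list, stood at 2548 CPM in members (1666 to 3443, median 2781) and 66.1 CPM in other nuclei (58.4 to 74.6, median 66.5), 38.6-fold higher (interval 36.9 to 40.3) with no overlap of libraries. C7, a terminal complement component of the same list, stood at 363 CPM in members (51.5 to 996, median 347) and 2.12 CPM in other nuclei (0.972 to 4.48, median 1.32). The scavenger receptor COLEC12, which is not in that list, stood at 1010 and 10.2 CPM, and on the mural side at 1601 CPM against 679 CPM on the fibroblast side. Also outside the list, the growth factor IGF2 stood at 288 and 2.19 CPM, and IGFBP7, a vessel-associated binding protein of the same system, at 642 and 18.2 CPM. The log2 ratio of C7 was 7.75 in libraries 1 to 4 alone and 6.52 in libraries 5 to 8 alone, that of CEMIP 5.57 and 4.93, that of IGF2 6.77 and 8.14 and that of COLEC12 6.26 and 7.30.

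Pericyte genes were higher in 13 of 16 measured cases and smooth muscle genes in 7 of 13, with none lower in either list. ABCC9 stood at 255 CPM in members (168 to 437, median 263) and 3.39 CPM in other nuclei (1.22 to 6.06, median 3.12), 75.3-fold higher (interval 65.0 to 86.9). SLC6A12, a betaine and GABA transporter, stood at 572 and 7.68 CPM. Of the smooth muscle list, CALD1, an actin-binding regulator of contraction, stood at 1377 and 90.0 CPM and RBPMS, an RNA-binding protein, at 722 and 15.4 CPM. EDNRA, the endothelin receptor of vessel walls, stood at 161 and 2.68 CPM, and PDE5A, which degrades cyclic GMP, at 261 and 13.3 CPM. Over the named pericyte, smooth muscle, tone and basement membrane genes the log2 ratios were larger in libraries 5 to 8 alone than in libraries 1 to 4 alone for ABCC9 (7.21 and 5.80), EDNRA (7.07 and 5.53), CALD1 (4.53 and 3.69), RBPMS (6.05 and 5.37) and LAMA4 (5.19 and 3.92), and smaller for LAMC3 (5.46 and 5.87).

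Many of the listed transcription factors and retinoid genes were higher in members than in all other nuclei. Of 24 measured transcription factors 13 were called higher and 2 lower. TBX18, a T-box factor of mural progenitors, stood at 107 CPM in members (13.5 to 201, median 105) and 0.825 CPM in other nuclei (0.366 to 1.32, median 0.745). Within the members it stood at 40.3 CPM on the mural side and 144 CPM on the fibroblast side. TBX15 stood at 73.1 and 0.628 CPM, ZIC1, a zinc-finger factor also present in meninges, at 85.5 and 0.865 CPM, and ZIC4 at 67.5 and 0.573 CPM. TBX18 and ZIC4 were not called in libraries 1 to 4 alone, where their log2 ratios were 5.42 and 5.95, against 8.30 and 7.78 in libraries 5 to 8 alone. For ZIC1 these log2 ratios were 5.84 and 7.27, and for ALDH1A2, described next, 5.38 and 6.91. Of 6 measured retinoid genes 5 were higher, among them ALDH1A2, which makes retinoic acid, at 226 CPM in members (40.4 to 400, median 240) and 3.24 CPM in other nuclei (2.11 to 4.56, median 3.16). CYP1B1, a cytochrome that acts on retinoids, stood at 55.1 and 0.771 CPM, and lost its call without library 2 (log2 ratio 5.95), in libraries 5 to 8 alone, with TMM scaling (5.88), with doublets removed, with fewer than 2 endothelial genes and within the mural or fibroblast cluster.

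Transporters were higher in 16 of 26 cases and lower in 1. SLC6A20, a carrier of proline and related amino acids, stood at 321 CPM in members (121 to 497, median 329) and 1.44 CPM in other nuclei (0.435 to 2.86, median 1.41), 223-fold higher (interval 191 to 258), with a log2 ratio of 8.18 in libraries 1 to 4 alone and 7.47 in libraries 5 to 8 alone. SLC20A2, the phosphate importer mutated in a familial form of brain calcification, stood at 943 CPM in members (696 to 1124, median 982) and 163 CPM in other nuclei (146 to 180, median 163). Its libraries did not overlap between the classes, and its log2 ratio was 2.53 in libraries 1 to 4 alone and 2.52 in libraries 5 to 8 alone. Of 9 measured immediate-early and stress genes 6 were higher, FOS at 85.5 and 3.18 CPM and JUN at 95.6 and 9.04 CPM. The log2 ratio of FOS was 4.26 in libraries 1 to 4 alone and 5.35 in libraries 5 to 8 alone, that of JUN was 2.73 and 4.10, and JUN was not called with doublets removed (3.47). Of the signalling lists, 5 of 7 platelet-derived growth factor, VEGF and angiopoietin genes were higher, 3 of 5 Notch, 4 of 7 Wnt and 6 of 10 IGF and chemokine genes, with none lower, and 5 of 13 TGF-β and bone morphogenetic protein genes were higher and 2 lower.

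Channels that volatile and other general anaesthetics are known to act on went the other way, with KCNK2 as the exception. Of 18 measured, 14 were called lower in members and 1 higher, with a median log2 ratio of −1.32. Lower genes included the GABA-A receptor subunits GABRA5 (14.6 against 62.9 CPM) and GABRA4 (13.5 against 51.02 CPM). GABRA4 rested on 12 UMIs in members and lost its call without library 1 (log2 ratio −2.24) or library 2 (−1.86) and in libraries 5 to 8 alone (−2.87, against −1.36 in libraries 1 to 4 alone), and GABRA5 in libraries 1 to 4 alone (−2.28). The potassium channel KCNMA1, from the list of vessel wall channels, stood at 351 and 1033 CPM. KCNK2, the two-pore potassium channel also called TREK-1 that volatile anaesthetics open, stood at 467 CPM in members and 35.9 CPM in other nuclei, 13-fold higher (interval 11.8 to 14.3). Library values ran from 53.8 to 1047 CPM in members (median 425) and from 22.1 to 46.8 CPM in other nuclei (median 38.7). The log2 ratio was 2.29 in libraries 1 to 4 alone and 4.13 in libraries 5 to 8 alone. CACNA1C, the main L-type calcium channel of smooth muscle and also of neurons, was not called, at 772 and 1008 CPM (log2 ratio 0.15 in libraries 1 to 4 alone and −0.82 in libraries 5 to 8 alone).

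Set against endothelial nuclei, the other cells of the vessel wall, fewer genes were called at 2-fold. Of 5269 measured genes, 382 were called higher in members (7.25%) and 405 lower (7.69%), with a median log2 ratio of 0.09 over all of them. At 4-fold 194 were called higher and 215 lower, against 330 and 76 in the comparison with all other nuclei. Endothelial nuclei held 1227144 UMIs and all other nuclei 329607683, and the part of this depth in the number of calls was not tested. TMM scaling shifted the log2 ratios by −0.13 and gave 328 higher and 473 lower. The rule kept nuclei with 3 or more endothelial genes out of the members and nuclei with 3 or more member genes out of the endothelial nuclei. Pan-neuronal markers summed to 4385 CPM in members and 4247 CPM in endothelial nuclei, and astrocyte markers to 2038 and 1503 CPM.

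Ligands and receptors were divided between the classes. ANGPT1, the ligand of the endothelial receptor TEK, stood at 271 CPM in members (175 to 382, median 257) and 45.6 CPM in endothelial nuclei (10.0 to 83.1, median 42.8), 5.94-fold higher (interval 4.43 to 8.10). Members were above every endothelial library, and the log2 ratio was 2.98 in libraries 1 to 4 alone and 2.14 in libraries 5 to 8 alone. Of 9 measured Notch genes, NOTCH2 was higher in members, 209 against 39.9 CPM, and 4 were lower. NOTCH4, an endothelial Notch receptor, had no UMI in members and stood at 106 CPM in endothelial nuclei (60.8 to 151, median 105), which was at least 31.4-fold lower with 3 counts over the members as the floor. DLL4, a Notch ligand of arterial endothelium, likewise had none, against 76.6 CPM, at least 22.7-fold lower. The sphingosine 1-phosphate receptors parted: S1PR3 stood at 64.1 and 5.70 CPM, and S1PR1 at 2.25 CPM (2 UMIs) and 53.0 CPM, 23.5-fold lower (interval 6.26 to 199). Leaving out library 4 moved the log2 ratio of S1PR3 to 4.11, leaving out library 1 or 6 moved that of S1PR1 to −5.29 or −5.43, and S1PR1 lost its call without library 3 (−4.34) and in libraries 5 to 8 alone (−4.09, against −4.79 in libraries 1 to 4 alone). The log2 ratio of S1PR3 was 2.88 in libraries 1 to 4 alone and 3.27 in libraries 5 to 8 alone. RAMP3 and CALCRL, which together form an adrenomedullin receptor, were lower in members, at 6.75 against 119 CPM and 52.9 against 315 CPM, with a log2 ratio for RAMP3 of −3.83 in libraries 1 to 4 alone and −4.52 in libraries 5 to 8 alone.

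Bone morphogenetic protein and Wnt genes showed the same kind of division. BMP5 stood at 163 CPM in members (75.5 to 331, median 152) and 1.63 CPM in endothelial nuclei, where 2 UMIs were counted, a 100-fold ratio with an interval of 27.2 to 834. Its log2 ratio of 6.65 was 7.33 without library 2 and 7.61 without library 6. ENG, a co-receptor for these ligands, was lower in members, 49.5 against 410 CPM, and so was SMAD6, an inhibitor of the pathway, 57.4 against 499 CPM (log2 ratio −3.70 in libraries 1 to 4 alone and −2.69 in libraries 5 to 8 alone). RSPO2, which raises Wnt signalling, stood at 141 CPM in members (13.7 to 225, median 151) and 8.15 CPM in endothelial nuclei (0 to 21.6, median 7.54). IGFBP5, an IGF-binding protein, stood at 172 and 17.1 CPM and IL34, a ligand of the microglial receptor CSF1R, at 122 and 8.96 CPM, with a log2 ratio of 2.98 in libraries 1 to 4 alone and 4.38 in libraries 5 to 8 alone. Over the lists, 2 of 16 TGF-β and bone morphogenetic protein genes were higher and 4 lower, 3 of 10 Wnt genes were higher and 4 lower, and 2 of 11 platelet-derived growth factor, VEGF and angiopoietin genes were higher and 5 lower.

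Transporters were split nearly evenly, 13 of 32 higher and 12 lower. SLC7A5, the large neutral amino acid carrier of the blood-brain barrier, stood at 24.8 CPM in members (0 to 114, median 13.6) and 1014 CPM in endothelial nuclei (779 to 1385, median 870), 41.0-fold lower (interval 26.9 to 65.6). Its log2 ratio of −5.36 became −6.69 without library 1, the library with the highest value in members. ATP10A, a lipid flippase, stood at 91.1 and 2452 CPM. In libraries 1 to 4 alone and 5 to 8 alone the log2 ratio of SLC7A5 was −4.69 and −7.00, and that of ATP10A −4.02 and −6.72. In the other direction, SLC13A4, a sulphate carrier, stood at 225 and 7.33 CPM, with a log2 ratio of 4.94 that became 5.61 without library 8. SLC20A2 was higher than in endothelial nuclei as well, 943 against 230 CPM (log2 ratio 1.61 in libraries 1 to 4 alone and 2.70 in libraries 5 to 8 alone), while JAM2, a junction protein also tied to familial brain calcification, was lower, 97.9 against 469 CPM.

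Of 13 measured smooth muscle genes 8 were higher in members and 1 lower, and of 27 vessel wall channels 9 were higher and none lower. The cyclic nucleotide and vessel tone list was even, with 4 of 12 genes higher (PDE5A, EDNRA, PRKG1 and PDE3A) and 4 lower (RAMP3, CALCRL, PDE10A and CYSLTR1). PRKG1, the cyclic GMP-dependent kinase, stood at 1958 CPM in members (1599 to 2634, median 1891) and 599 CPM in endothelial nuclei (311 to 749, median 541). PDE5A stood at 261 and 22.8 CPM, with a log2 ratio of 2.91 in libraries 1 to 4 alone and 4.30 in libraries 5 to 8 alone. CACNA1C stood at 772 and 370 CPM, a 2.09-fold difference at the threshold that lost its call without library 3 (log2 ratio 0.96), 4 (1.00) or 6 (0.97), in libraries 5 to 8 alone (0.88) and with TMM scaling (0.93).

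Collagens were higher in members in 14 of 19 cases and lower in none. Basement membrane genes other than collagens were higher in 7 of 13 cases and lower in 1, and genes of matrix structure and remodelling were higher in 3 of 22 cases and lower in none. LAMB1 stood at 248 and 44.0 CPM and LAMC3 at 259 and 26.9 CPM (log2 ratio 3.00 in libraries 1 to 4 alone and 4.06 in libraries 5 to 8 alone), whereas the laminin chain LAMA3 was lower, 60.8 against 235 CPM (log2 ratio −1.47 and −2.40 in the same sets). Several vessel wall genes did not part the classes. IGFBP7 stood at 642 CPM in members (380 to 1028, median 564) and 686 CPM in endothelial nuclei (403 to 1382, median 608), a ratio of 0.936 (interval 0.840 to 1.04). EBF1, a transcription factor of pericytes, stood at 1080 and 1175 CPM, and LAMA4 at 684 and 426 CPM. LAMA4 was called higher in members where the sub-cluster of mixed nuclei was left out (log2 ratio 1.06 in place of 0.68).

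Endothelial identity genes outside the rule were low in members: PECAM1 stood at 3.38 CPM (3 UMIs) against 491 CPM, 145-fold lower with an interval of 49.5 to 707. Its log2 ratio of −7.18 was −8.45 without library 2 and −6.27 in libraries 1 to 4 alone. In libraries 5 to 8 alone members had no PECAM1 UMI, so the −6.02 there is a bound on a larger difference. EPAS1, a hypoxia-inducible factor, stood at 173 and 997 CPM, with a log2 ratio of −2.80 in libraries 1 to 4 alone and −2.15 in libraries 5 to 8 alone. Among 9 measured anaesthetic targets 1 was called higher and 1 lower. The higher one was KCNK2, at 467 against 16.3 CPM, with a log2 ratio of 3.35 in libraries 1 to 4 alone and 5.30 in libraries 5 to 8 alone.

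**Figure D3:**
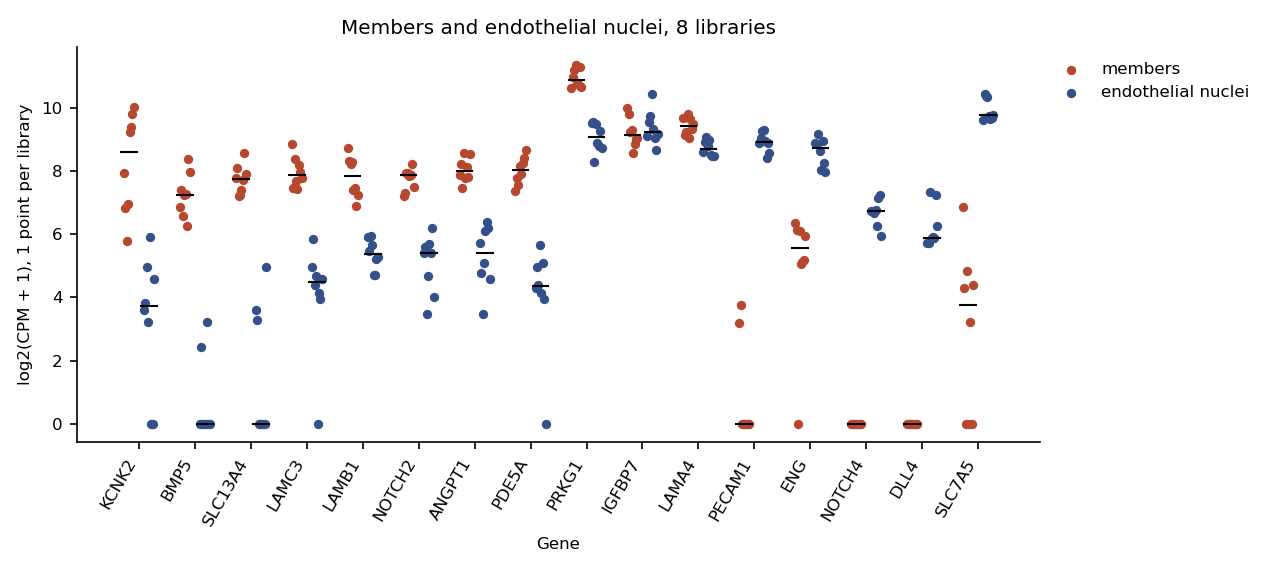
Levels of 16 genes as log2(CPM + 1) in members (left of each pair) and endothelial nuclei (right), with 1 point per library and a line at the median. ANGPT1 and SLC13A4 lie above in members (271 against 45.6 CPM and 225 against 7.33 CPM), IGFBP7 overlaps, and NOTCH4 and DLL4 lie at 0 in members in all 8 libraries.

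The mural and fibroblast sides of the members were then compared. The sides were fixed by the rule genes, which are left out of all counts. Of 5227 measured genes, 125 were called higher on the mural side (2.39%) and 183 lower (3.5%), with a median log2 ratio of −0.07. On simulated data of these depths with 4-fold changes, 95% of raised and 76% of lowered genes were recovered. Pan-neuronal markers summed to 6069 CPM on the mural side and 3438 CPM on the fibroblast side, and their part in the differences was not tested.

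Of 17 measured pericyte genes 10 were higher on the mural side and 1 lower, with a median log2 ratio of 1.84. ABCC9 stood at 608 CPM on the mural side (340 to 1033, median 604) and 53.3 CPM on the fibroblast side (0 to 182, median 47.4), 11.4-fold higher (interval 7.74 to 17.4) with no overlap of libraries. Its log2 ratio of 3.51 was 7.22 with sides taken from sub-clusters and 5.04 where the detected shares were over 0.2 apart. DLC1, a GTPase-activating protein, stood at 5976 CPM (4746 to 7411, median 5955) and 948 CPM (394 to 2233, median 956). Its libraries did not overlap either, and its log2 ratio was 2.28 in libraries 1 to 4 alone and 3.12 in libraries 5 to 8 alone. MCAM, an adhesion molecule of the vessel wall, stood at 403 and 60.4 CPM, with log2 ratios of 2.24 and 3.36 in the same library sets. CCDC102B, a coiled-coil protein, stood at 301 and 17.8 CPM, and PDE4C, a phosphodiesterase of cyclic AMP, at 152 and 8.89 CPM. The log2 ratio of PDE4C was 4.10 over all libraries, 3.33 in libraries 1 to 4 alone and 3.49 in libraries 5 to 8 alone, and that of CCDC102B was 3.55 and 4.30 in these sets.

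The metabotropic glutamate receptors GRM8 and GRM3 were higher on the mural side. GRM8 stood at 2284 CPM on the mural side (1830 to 3026, median 2200) and 423 CPM on the fibroblast side (242 to 987, median 416), 5.40-fold higher (interval 4.66 to 6.27). GRM3 stood at 1852 CPM (1519 to 2617, median 1841) and 256 CPM (41.5 to 545, median 247), and astrocyte-like clusters held it at 1297 CPM. Astrocyte markers summed to 2693 CPM on the mural side and 1675 CPM on the fibroblast side, and their part in the GRM3 difference was not tested. For both receptors every mural-side library was above every fibroblast-side library, and the log2 ratios in libraries 1 to 4 alone and 5 to 8 alone were 2.13 and 2.84 for GRM8 and 2.51 and 3.28 for GRM3.

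Of 29 measured transporters 4 were higher on the mural side and 8 lower. SLC38A11, an amino acid transporter that was higher, stood at 1371 CPM on the mural side (1035 to 1822, median 1374) and 162 CPM on the fibroblast side (9.85 to 291, median 155), with a log2 ratio of 2.55 in libraries 1 to 4 alone and 3.88 in libraries 5 to 8 alone. SLC12A2, the sodium-potassium-chloride importer NKCC1, stood at 627 and 105 CPM, with a log2 ratio of 2.07 in libraries 1 to 4 alone and 3.67 in libraries 5 to 8 alone. GJC1, the gap junction protein connexin 45, stood at 239 and 42.7 CPM, and was not called within the mural or fibroblast cluster alone (log2 ratio 2.73). CACNA1C stood at 1421 CPM (1031 to 1797, median 1504) and 389 CPM (240 to 610, median 354), so the channel that did not part members from other nuclei was called between the sides. Its log2 ratio was 2.32 in libraries 1 to 4 alone and 1.51 in libraries 5 to 8 alone.

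The cyclic nucleotide and vessel tone list had 4 of 10 genes higher on the mural side and none lower. GUCY1A1, a subunit of the nitric oxide receptor that makes cyclic GMP, stood at 385 and 74.7 CPM, with a log2 ratio of 2.37 that was 2.99 without library 7. PRKG1 stood at 3314 and 1166 CPM and PDE3A, which degrades cyclic AMP, at 1616 and 446 CPM. In libraries 1 to 4 alone and 5 to 8 alone the log2 ratios were 2.89 and 2.27 for GUCY1A1, 1.07 and 1.99 for PRKG1 and 2.10 and 1.28 for PDE3A. Of 6 measured Notch genes 1 was higher and 1, RBPJ, lower. The higher one was HEY2, a Notch target, at 127 against 24.9 CPM, with no call where the sides were taken from sub-clusters (log2 ratio 3.09). Its log2 ratio was 2.10 in libraries 1 to 4 alone and 2.71 in libraries 5 to 8 alone. EPAS1 was higher as well, 360 against 65.8 CPM, with a log2 ratio of 1.74 in libraries 1 to 4 alone and 3.18 in libraries 5 to 8 alone.

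Genes of contraction did not separate the sides. Of 14 measured smooth muscle genes, CALD1 was higher on the mural side (2271 against 873 CPM), ITGA8 was lower and 12 were neither, with a median log2 ratio of −0.08. ITGA8, an integrin chain, stood at 59.0 CPM on the mural side and 631 CPM on the fibroblast side. Its log2 ratio of −3.42 was −4.93 without library 1, −1.67 in libraries 1 to 4 alone and −7.16 in libraries 5 to 8 alone. As given above, 9 of the 13 nuclei with contractile genes were on the fibroblast side.

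Of 18 measured collagens 2 were higher on the mural side and 7 lower. Collagen IV chains were called both ways, COL4A4 and COL4A1 higher and COL4A5 and COL4A6 lower. COL4A4 stood at 158 and 17.8 CPM, and COL4A1 at 537 CPM (120 to 1293, median 340) and 187 CPM (64.5 to 360, median 210). The COL4A1 libraries overlapped between the sides, and the call was absent in libraries 5 to 8 alone, where the log2 ratio was 0.65 against 1.8 in libraries 1 to 4 alone. AGRN, a heparan sulphate proteoglycan of basement membranes, stood at 242 and 32.0 CPM (log2 ratio 3.33 in libraries 1 to 4 alone and 2.67 in libraries 5 to 8 alone). HSPG2, perlecan, of the same family, was lower on the mural side, 15.5 against 167 CPM, and its log2 ratio of −3.43 was −5.40 without library 8, with no call where the sides were taken from sub-clusters (−3.54). FN1 was not called, at 593 CPM (334 to 810, median 664) and 542 CPM (150 to 854, median 492).

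Fibroblast identity genes were lower on the mural side in 13 of 21 cases and higher in none, with a median log2 ratio of −2.63. CEMIP stood at 118 CPM on the mural side (0 to 689, median 33.6) and 3959 CPM on the fibroblast side (2473 to 7642, median 4081), 33.6-fold lower (interval 24.4 to 47.6). The highest mural-side library was library 8, without which the log2 ratio of −5.07 became −6.24, and the ratio was −7.58 in libraries 1 to 4 alone and −3.94 in libraries 5 to 8 alone. C7 stood at 6.20 CPM (2 UMIs) and 571 CPM, a 92.0-fold ratio with an interval of 25.3 to 763. Its log2 ratio was −6.52 over all libraries and −6.35 in libraries 1 to 4 alone. The −5.77 without library 2 and the −3.14 in libraries 5 to 8 alone are bounds, since no mural-side UMI was left. SLC6A20 stood at 9.31 CPM (3 UMIs) and 501 CPM (270 to 732, median 511), 53.9-fold lower (interval 18.2 to 262). Its log2 ratio was −4.70 in libraries 1 to 4 alone and −4.79 in libraries 5 to 8 alone. With 3 mural-side UMIs in all, these values lie at or close to the floor of 3 counts. For C7 and SLC6A20 no mural-side library reached the lowest fibroblast-side library.

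The retinoid list had 4 of 7 genes lower on the mural side and none higher, with the lowest median log2 ratio of the 19 lists, −3.75. ALDH1A2 stood at 12.4 CPM on the mural side and 348 CPM on the fibroblast side (86.6 to 695, median 374). Its log2 ratio of −4.81 was −6.62 without library 8 and −4.10 in libraries 5 to 8 alone. In libraries 1 to 4 alone the mural side had no UMI, so the −3.84 there is a bound. DHRS3, which reduces retinal to retinol, stood at 3.103 CPM (1 UMI) and 96.0 CPM, a 30.9-fold ratio with an interval of 5.32 to 1244. Its log2 ratio was −4.95 over all libraries and −3.84 in libraries 1 to 4 alone. The −3.04 without library 1 and the −2.46 in libraries 5 to 8 alone are bounds, since no mural-side UMI was left. Bone morphogenetic protein ligands lay on the same side. BMP6 stood at 37.2 CPM on the mural side and 699 CPM on the fibroblast side (355 to 1222, median 702), and BMP5 at 18.6 and 245 CPM. The log2 ratio of BMP6 was −4.23 over all libraries and −6.05 without library 8, and that of BMP5 was −3.72 and −4.66 without library 2. In libraries 1 to 4 alone and 5 to 8 alone they were −5.10 and −3.94 for BMP6 and −3.04 and −4.52 for BMP5. JUN and FOS were lower on the mural side, at 15.5 against 140 CPM and 18.6 against 124 CPM, and the log2 ratio of JUN was −3.18 over all libraries and −4.35 without library 1. In libraries 1 to 4 alone and 5 to 8 alone it was −2.01 and −4.84 for JUN and −2.06 and −3.53 for FOS, and JUN was not called where the sides were taken from sub-clusters (−2.32).

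Further genes called lower on the mural side came from the matrix, transporter, Wnt, IGF and transcription factor lists. ADAMTS12, a secreted metalloproteinase, stood at 15.5 CPM on the mural side (0 to 59.9, median 9.60) and 537 CPM on the fibroblast side (173 to 936, median 547), 34.6-fold lower (interval 14.7 to 107). SLC13A3, a dicarboxylate carrier, stood at 24.8 and 430 CPM, and its log2 ratio of −4.12 was −4.75 without library 2. No mural-side library of either gene reached the lowest fibroblast-side library. RSPO2 stood at 18.6 and 212 CPM and ZIC2 at 12.4 and 178 CPM, with log2 ratios of −3.51 and −3.84 that were −4.30 and −4.63 without library 3. IGFBP5 stood at 37.2 and 249 CPM, and was not called with doublets removed (log2 ratio −2.50), within the mural or fibroblast cluster (−2.80) or with sides taken from sub-clusters (−1.77). The log2 ratios in libraries 1 to 4 alone and 5 to 8 alone were −4.30 and −5.44 for ADAMTS12, −3.36 and −4.84 for SLC13A3, −3.06 and −3.82 for RSPO2 and −2.69 and −3.53 for IGFBP5

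KCNK2 lay almost wholly on the fibroblast side. It stood at 21.7 CPM on the mural side (0 to 120, median 0) and 725 CPM on the fibroblast side (120 to 1613, median 666), 33.4-fold lower (interval 16.1 to 83.6). No mural-side library was above the lowest fibroblast-side library. The log2 ratio was −5.06 over all libraries, −5.89 without library 8 and −4.77 in libraries 5 to 8 alone. In libraries 1 to 4 alone the mural side had no UMI, so the −3.60 there is a bound on a larger difference. Its level was 1568 CPM in sub-cluster 1 and 340 CPM in sub-cluster 2, against 0 and 12.2 CPM in the pericyte sub-clusters 3 and 4.

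ATP13A5, a P-type ATPase used as a pericyte marker in mouse, was the 1 gene of the pericyte list that was lower on the mural side. It stood at 12.4 CPM on the mural side (0 to 59.9, median 0) and 368 CPM on the fibroblast side (23.6 to 887, median 227), 29.7-fold lower (interval 11.4 to 110). This rested on libraries 5 to 8, where the log2 ratio was −4.77, and without library 8 it was −5.64. In libraries 1 to 4 alone the gene was not called. The −0.84 there is a bound, since the mural side had no UMI. Sub-cluster 1 held ATP13A5 at 873 CPM and the other sub-clusters at no more than 64.1 CPM. Newly formed oligodendrocytes also held the gene, at 414 CPM.

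**Figure D4:**
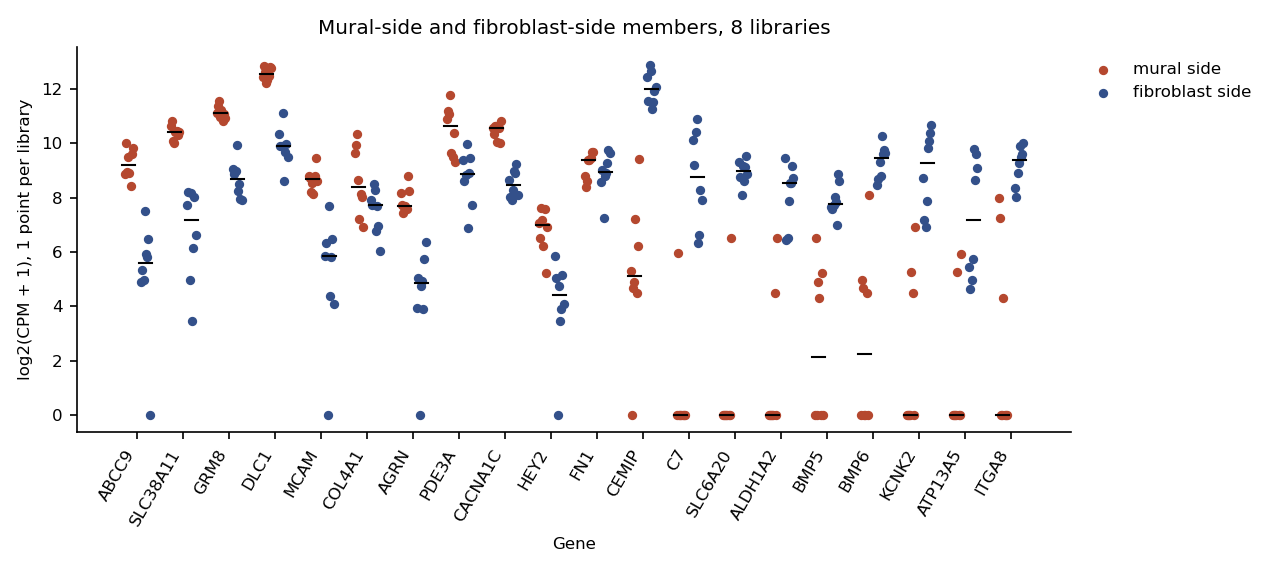
Levels of 20 genes as log2(CPM + 1) in mural-side members (left of each pair) and fibroblast-side members (right), with 1 point per library and a line at the median. ABCC9, GRM8 and DLC1 lie above on the mural side in every library, FN1 overlaps, and CEMIP, SLC6A20 and KCNK2 lie below on the mural side.

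**Figure D5:**
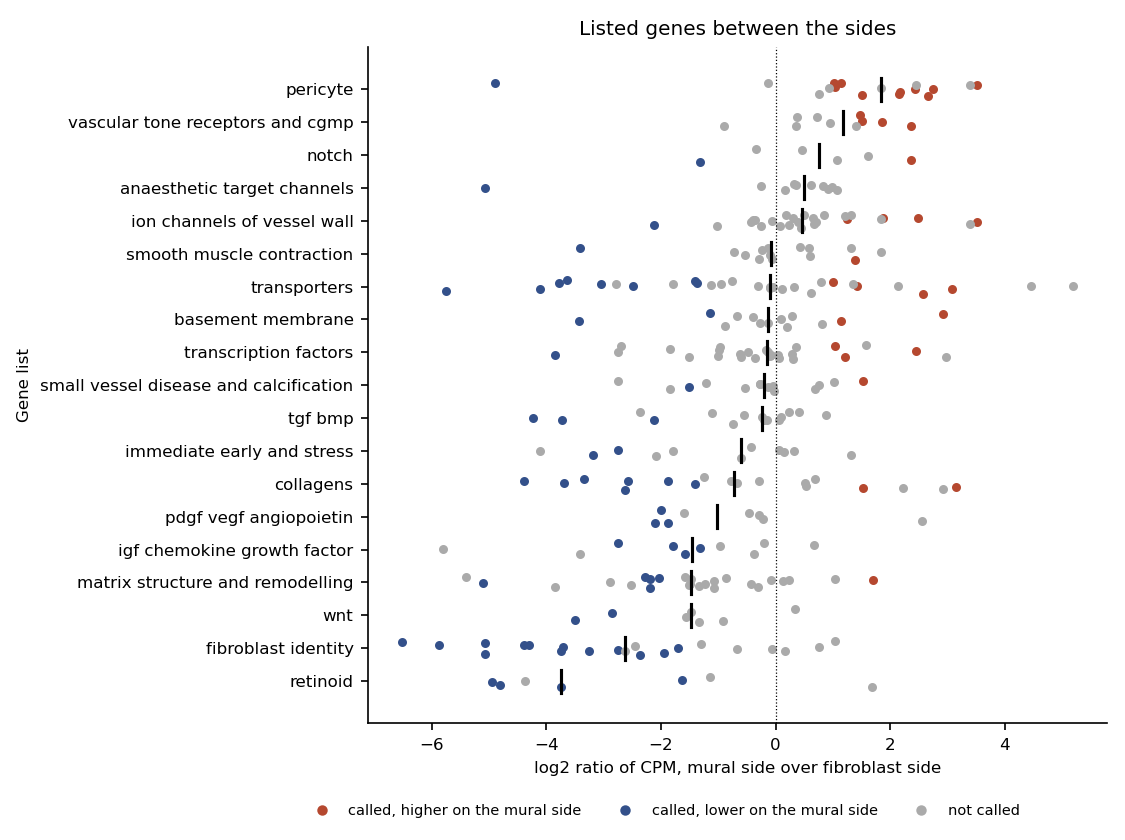
Ratio of CPM, mural side over fibroblast side, on a log2 axis for the measured genes of 19 lists, with 1 point per gene and a line at the list's median. Pericyte genes have a median of 1.84 with 10 called higher and 1 lower, and retinoid genes a median of −3.75 with 4 called lower.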

How the data were processed

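UMI counts, whole numbers without normalisation, were deposited for each gene in each nucleus, made with Cell Ranger 3.1.0 per the file headers. CASAVA 1.8 and Seurat are further tools in the submitters' processing notes, with no role or order. A genome build was not given in the sources used here, and neither coordinates nor sequences are printed. The matrix held 21748 genes, 59749 barcodes and 331133661 UMIs. The members and gene lists were chosen with earlier results of these data known. Symbols are those of the files, or for 646 genes those of a symbol table, as for PDE4C. Some genes that the naming rule picked are not reported here.

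UMIs were summed per class over libraries and expressed as CPM. A call needed 2-fold, 50 CPM and 1 direction over the libraries that held 20 or more nuclei of each class (10 for the sides). A class at 0 was set to 3 counts. Rule genes were left out of counts, and 513 of 528 listed genes were in the matrix. Intervals are exact 95% intervals (Clopper-Pearson for shares, conditional binomial for ratios). They cover counting error only. All nuclei were clustered on 2000 variable genes (30 components, 20 neighbours, Leiden resolution 1.0) and members on 1000 (15 components, 15 neighbours, resolution 0.8), without listed and rule genes and without correction between libraries. Doublets were the highest scores among 50 neighbours of simulated pairs, at 0.8% per 1000 nuclei, and were kept in the main values. The calling step was tested on simulated data with 4-fold changes: it recovered 100% of raised and 100% of lowered genes among 4131 for members against other nuclei, 100% and 90% among 4648 against endothelial nuclei, and 95% and 76% among 4707 between the sides, with 0, 0 and 8 unchanged genes called. These counts were Poisson draws from 1 profile for all libraries, without the differences between libraries seen in the data, so they cover counting error only. Genes open to being named were, per comparison and list, called genes of largest ratio in each direction, then over all lists those of largest ratio and highest level; genes not called, and sub-cluster genes, were named after their values were seen. Alternatives covered scaling, the minimum level, the fold, the weight of libraries, free RNA, doublets, the member rule, the split of sides and each library left out. Python 3.11.15 with numpy 2.4.6, scipy 1.17.1, scikit-learn 1.9.0 and leidenalg 0.10.2 was used.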

Additional observations from a re-analysis of the deposited data

Results flagged for a closer look

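The 8 libraries carry no group label here, so each value was compared with the other 7 libraries, and 4 of 100 quantities had a highest or lowest library whose gap to its neighbour exceeded Dixon's 95% critical value for 8 samples. Chance alone gives about 1 such library in 20 quantities. In endothelial nuclei IGFBP7 was highest in library 4, at 1382 CPM against 403 to 853 CPM in the other libraries. On the mural side MCAM was highest in library 7, at 699 CPM against 278 to 447 CPM, and GJC1 in library 2, at 607 CPM against 110 to 317 CPM. On the fibroblast side DHRS3 was highest in library 6, at 235 CPM against 48.4 to 130 CPM.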

How the results depend on the processing

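No paired analysis was possible because no source used here pairs the libraries in the matrix with the samples and their replicate numbers. Of 98 called ratios of single genes, no alternative turned a direction. At least 86 kept their call under each alternative applied to all 3 comparisons, and 34 of 38 between the sides with sides by sub-clusters. The sizes moved more: of 39 ratios between the sides, 31 moved by over 1.5 times with sides by sub-clusters and 24 with shares over 0.2 apart, SLC38A11 for example having a log2 ratio of 3.08 over all sided members, 7.17 by sub-clusters and 5.16 with shares over 0.2 apart. Between the sides, calls lost with at least 4 rule genes were PDE3A (log2 ratio 1.95), HEY2 (2.59), JUN (−3.02), RSPO2 (−3.63) and ZIC2 (−3.51), and those lost without the mixed sub-cluster were GJC1 (2.87), IGFBP5 (−2.57) and RSPO2 (−3.15). With a 4-fold threshold the called genes were 330 higher and 76 lower against other nuclei, 194 and 215 against endothelial nuclei, and 45 and 93 between the sides. With doublets removed members were 0.553% of nuclei, and 189 and 314 genes were called between the sides, over 6 libraries in place of 8. With at least 4 rule genes members were 0.357% of nuclei, and within the mural or fibroblast cluster 0.543% (277 genes lower on the mural side, over 7 libraries). Thinned to 1000 UMIs, they were 0.376% of nuclei that held at least 1000 UMIs. The sides called 230 genes higher on the mural side by sub-clusters, with 54.2% of members on the fibroblast side. Where shares were over 0.2 apart, 190 and 317 genes were called, over 6 libraries. By summed UMIs of the rule genes 88.4% of members were on the fibroblast side, and no library then had 10 nuclei on both sides, so no genes could be called. Alternatives chosen after seeing the data gave, for libraries 1 to 4 only, 0.447% members and 276 and 386 genes between the sides, for libraries 5 to 8 only, 0.890% members, 1081 genes higher than in other nuclei, 608 higher than in endothelial nuclei and 339 and 586 between the sides, and without the mixed sub-cluster 0.548% members. The cause was not tested, beyond that fewer libraries make agreement in every library easier to reach. This also holds for the settings above that used 6 or 7 libraries. Without each library in turn members were 0.578% to 0.678% of nuclei, the fibroblast side was 58.7% to 62.2%, and 691 to 757 genes were called higher and 633 to 677 lower than in other nuclei. Depth limits most the 144 mural-side nuclei, in which 3 counts correspond to 9.31 CPM.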

Other observations

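Libraries without a group label differed in members for genes that led the sub-clusters; the first 2 leading genes of sub-clusters 1 to 4 are given by library. FKBP5, a co-chaperone of the glucocorticoid receptor whose gene that receptor induces, stood at 1314, 1050, 1237 and 1160 CPM in members of libraries 1 to 4 and 57.9, 67.1, 166 and 60.4 CPM in libraries 5 to 8. The other nuclei of the same libraries held FKBP5 at 218, 233, 322 and 319 CPM and 37.0, 34.6, 32.6 and 33.4 CPM, so the separation was not limited to members. PZP, a protease inhibitor, stood at 286, 294, 363 and 450 CPM in members of libraries 1 to 4 and 83.6, 101, 23.7 and 101 CPM in libraries 5 to 8, and in other nuclei at 45.3, 52.6, 67.7 and 72.5 CPM and 6.69, 6.16, 4.99 and 6.13 CPM.

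C7 stood at 645, 481, 619 and 996 CPM in members of libraries 1 to 4 and 51.5, 58.7, 213 and 151 CPM in libraries 5 to 8. ATP13A5 stood at 24.5, 18.8, 13.5 and 27.3 CPM in members of libraries 1 to 4 and 592, 243, 532 and 372 CPM in libraries 5 to 8, while in other nuclei the order was the opposite, 34.3, 32.3, 46.9 and 45.5 CPM and 19.5, 19.6, 20.9 and 18.9 CPM. MCTP2, a calcium-binding membrane protein, stood at 8.16, 12.5, 13.5 and 0 CPM in members of libraries 1 to 4 and 244, 176, 225 and 302 CPM in libraries 5 to 8, and at no more than 1.98 CPM in other nuclei of any library. RFTN1, a lipid raft protein, stood at 408, 194, 444 and 450 CPM in members of libraries 1 to 4 and 96.5, 126, 177 and 151 CPM in libraries 5 to 8, and the reverse in other nuclei, 99.3 to 111 CPM and 153 to 169 CPM. CCDC102B stood at 57.1, 18.8, 67.3 and 123 CPM in members of libraries 1 to 4 and 193, 210, 189 and 121 CPM in libraries 5 to 8, and SLCO1B3 at 49.0, 12.5, 0 and 13.7 CPM and 64.3, 109, 59.1 and 121 CPM. No animal, group or batch could be attached to these library sets.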
